A study of Mus musculus with 12 samples.

Results

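Myeloid C-type lectin receptors are surface proteins with which macrophages, monocytes, dendritic cells and neutrophils bind sugars, glycolipids and products of dying cells. Measured here were the 10 genes Clec4a1, Clec4a2, Clec4a3, Clec4b1, Clec4d, Clec4e, Clec4n, Clec5a, Clec7a and Clec12a, taken by name out of 34989 genes. RNA came from cells that the labels call tumor-associated macrophages, isolated from locally induced mouse melanomas, in 4 groups of 3 libraries. All groups carried Tyr::CreER, an inducible Cre recombinase under the tyrosinase promoter, which is active in melanocytes, and the genotype tag of all groups reads wild type. Control mice ate normal chow, and the labels name PBS as the vehicle of the antibody. The CD40 agonist group received FGK4.5, an antibody that activates the receptor CD40, at 10 mg/kg by intraperitoneal injection every 3 days for up to 10 treatments. The CSF1Ri group ate chow with 600 mg/kg PLX6134, taken here to inhibit the CSF1 receptor on which macrophages depend. The CSF1Ri + CD40 agonist group, called the combination here, received both. Treatment started 30 days after induction at a tumor volume below 100 mm3 and ran for 30 days or to a volume of 2 cm3, and each library pooled at least 3 tumors. Mice were age-matched; the sources used here give neither their ages nor a sorting gate for the sequenced cells.

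These receptors fall into groups by how they signal. Clec4e (Mincle), Clec4d (MCL) and Clec4n (Dectin-2) bind microbial or endogenous glycolipids and mannans and pass the signal through the adaptor Fcer1g to the kinase Syk, then through Card9, Bcl10 and Malt1 to NF-kB and cytokine genes. Clec4b1 (DCAR) also works through Fcer1g. Clec7a (Dectin-1), the receptor for fungal beta-glucan, carries its own Syk-binding motif, and Clec5a (MDL-1) uses the adaptor Tyrobp. Clec4a2 (DCIR) and Clec12a (MICL) carry inhibitory motifs that recruit phosphatases such as Ptpn6, while Clec4a1 and Clec4a3 are close relatives of Clec4a2. In tumors such receptors are known as sensors of cell damage and as markers of different myeloid states, and neutrophils and monocytes use several of them as well as macrophages do.

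All 10 genes lie on chromosome 6 (coordinates are gene spans of GENCODE M21 on GRCm38, and values cover the exons of the listed transcripts). Clec4a1 (ENSMUSG00000049037, 122921848 to 122934619), Clec4a3 (ENSMUSG00000043832, 122952515 to 122969875), Clec4b1 (ENSMUSG00000030147, 123049962 to 123071555), Clec4a2 (ENSMUSG00000030148, 123106428 to 123143999), Clec4n (ENSMUSG00000023349, 123229843 to 123247021) and Clec4d (ENSMUSG00000030144, 123262111 to 123275265) form a row on the plus strand. Clec4e (ENSMUSG00000030142, 123281789 to 123289870) ends the row on the minus strand, 6.5 kb from Clec4d. Clec12a (ENSMUSG00000053063, 129342691 to 129365303, plus strand) and Clec7a (ENSMUSG00000079293, 129461591 to 129472779, minus strand) lie 96.3 kb apart in a second cluster, and Clec5a (ENSMUSG00000029915, 40574894 to 40585821, minus strand) stands alone. The annotation lists Clec7a as a polymorphic pseudogene. Few reads could be exchanged between members: of the 75-base windows in its transcripts Clec4a2 shared 3.2% with Clec4a4 or Clec4b1, Clec4b1 shared 1.0% with Clec4a2, and the other 8 members shared 0.

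RefSeq start sites (GRCm38.p6) were matched for 9 of the 10 genes, all but Clec4n. Of those 9, 7 held the letters GAGGAA on either strand between 250 bases before and 50 bases after the start, the core that the myeloid factor PU.1 (gene Spi1) is known to bind, against 28.3% of 32851 promoters of that length. Where RefSeq lists several starts, the one at the annotated gene start was taken. The second start of Clec4a3 has a match 50 bases before it, which would make 8 of 9. For Clec4a2, Clec4d, Clec4e, Clec5a and Clec12a the RefSeq start was not at the GENCODE gene start. Those of Clec4a2 (123122690) and Clec12a (129350244) lie well inside the gene spans given above. The AP-1 letters TGANTCA were matched in 2 of 9 (7.8% of promoters), the C/EBP letters TTGCNNAA in 2 of 9 (10.8%) and the NF-kB core (3 G, then 5 of any letter, then 2 C) in 1 of 9 (50.8%). These are matches of letters in one window and not sites shown to be bound. The 250 bases before the start are printed, with GAGGAA or its complement TTCCTC in capitals, for the 4 receptors that were high in CSF1Ri replicates 1 and 2 and far lower in replicate 3: Clec4d at chr6:123261857-123262106 (plus strand), Clec4e at chr6:123289872-123290121, Clec5a at chr6:40585806-40586055 and Clec7a at chr6:129472780-129473029 (all 3 on the minus strand).
Clec4d: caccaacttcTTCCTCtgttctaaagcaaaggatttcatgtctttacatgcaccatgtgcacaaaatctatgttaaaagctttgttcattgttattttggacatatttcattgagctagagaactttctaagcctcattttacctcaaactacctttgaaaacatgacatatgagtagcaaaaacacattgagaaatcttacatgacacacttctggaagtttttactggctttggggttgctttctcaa
Clec4e: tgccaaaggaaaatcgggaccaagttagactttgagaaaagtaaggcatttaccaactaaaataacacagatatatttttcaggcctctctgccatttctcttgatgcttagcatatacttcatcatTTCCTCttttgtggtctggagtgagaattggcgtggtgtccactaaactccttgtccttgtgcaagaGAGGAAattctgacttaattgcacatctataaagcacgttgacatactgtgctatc
Clec5a: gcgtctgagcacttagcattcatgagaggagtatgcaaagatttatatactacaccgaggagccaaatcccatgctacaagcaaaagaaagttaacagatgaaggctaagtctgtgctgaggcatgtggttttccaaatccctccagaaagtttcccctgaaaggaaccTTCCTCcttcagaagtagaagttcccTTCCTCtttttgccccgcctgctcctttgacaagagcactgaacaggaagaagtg
Clec7a: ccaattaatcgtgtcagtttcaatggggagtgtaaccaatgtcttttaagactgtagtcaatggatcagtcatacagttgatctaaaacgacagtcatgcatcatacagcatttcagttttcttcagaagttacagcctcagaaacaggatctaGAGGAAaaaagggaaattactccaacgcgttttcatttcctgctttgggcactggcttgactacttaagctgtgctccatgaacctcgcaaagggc
The capitals start 240 bases before the start site in Clec4d, 123 and 56 before it in Clec4e, 81 and 55 in Clec5a and 96 in Clec7a, and Clec4d had further matches 7 and 39 bases after its start.

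The total of estimated counts ranged from 26316328 to 39818657 over the 12 libraries. All 13 macrophage markers were measured, and Adgre1, which encodes F4/80, lay between 194 and 298 counts per 1000000 (CPM, after TMM scaling) in the 12 libraries. Cd68 was about as even, at 521 to 765 CPM. Other macrophage markers were uneven between libraries, such as C1qa at 0.0679 to 109 CPM and Apoe at 11.4 to 424. No gene of the 13 marker lists, of which the others stood for other cell types or for stress, was at 0 in every library. On the second principal component combination replicate 2 lay far from its group (-105.8 against -32.5 and -55.6), and CSF1Ri replicate 3 from its own (32.7 against -22.2 and -24). CD40 agonist replicate 1 lay apart on the third component (-116.4 against -12.8 and 3.7). Without it the 1 edgeR call of a receptor that changed was that of Clec12a in the combination against CSF1Ri (adjusted p = 0.0628).

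Within the Control libraries the family spanned a wide range of levels, which were compared per transcript length as TPM (transcripts per 1000000, summed over a gene's transcripts). Clec4a3 was highest at 631 ± 29 TPM (SD, n = 3) and Clec4a1 followed at 474 ± 45.4, then Clec7a at 288 ± 36.2, Clec4a2 at 205 ± 38.3 and Clec12a at 151 ± 8.94. Below them came Clec4n at 110 ± 31, Clec4d at 86.3 ± 31.9, Clec4e at 82.2 ± 29.5, Clec4b1 at 64.8 ± 10.1 and Clec5a at 40.7 ± 10.9. From Clec4n down to Clec4b1, neighbours in this order differed by less than 1 SD. In the combination the order changed most for Clec5a, the lowest of the members in Control, which reached 203 ± 93.1 TPM, beside Clec4n at 203 ± 6.6. In CSF1Ri Clec7a stood first at 783 ± 478 TPM, the large SD reflecting 1 low library. The 10 genes together made up 2130 ± 196 TPM in Control, 2190 ± 104 in the CD40 agonist group, 2830 ± 688 in CSF1Ri and 2170 ± 263 in the combination. Their sum differed between Control and the combination by less than the SD. Partial sums are given as a description with no test. Clec4a1 and Clec4a3 summed to 1100 ± 64.7 TPM in Control and 716 ± 115 in the combination, and the activating receptors Clec4d, Clec4e, Clec4n, Clec5a and Clec7a summed to 607 ± 97.6 and 993 ± 177. The inhibitory receptors Clec4a2 and Clec12a summed to 356 ± 44.8, 355 ± 10.1, 354 ± 9.75 and 422 ± 28.6 TPM in Control, CD40 agonist, CSF1Ri and combination.

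**Figure D1:**
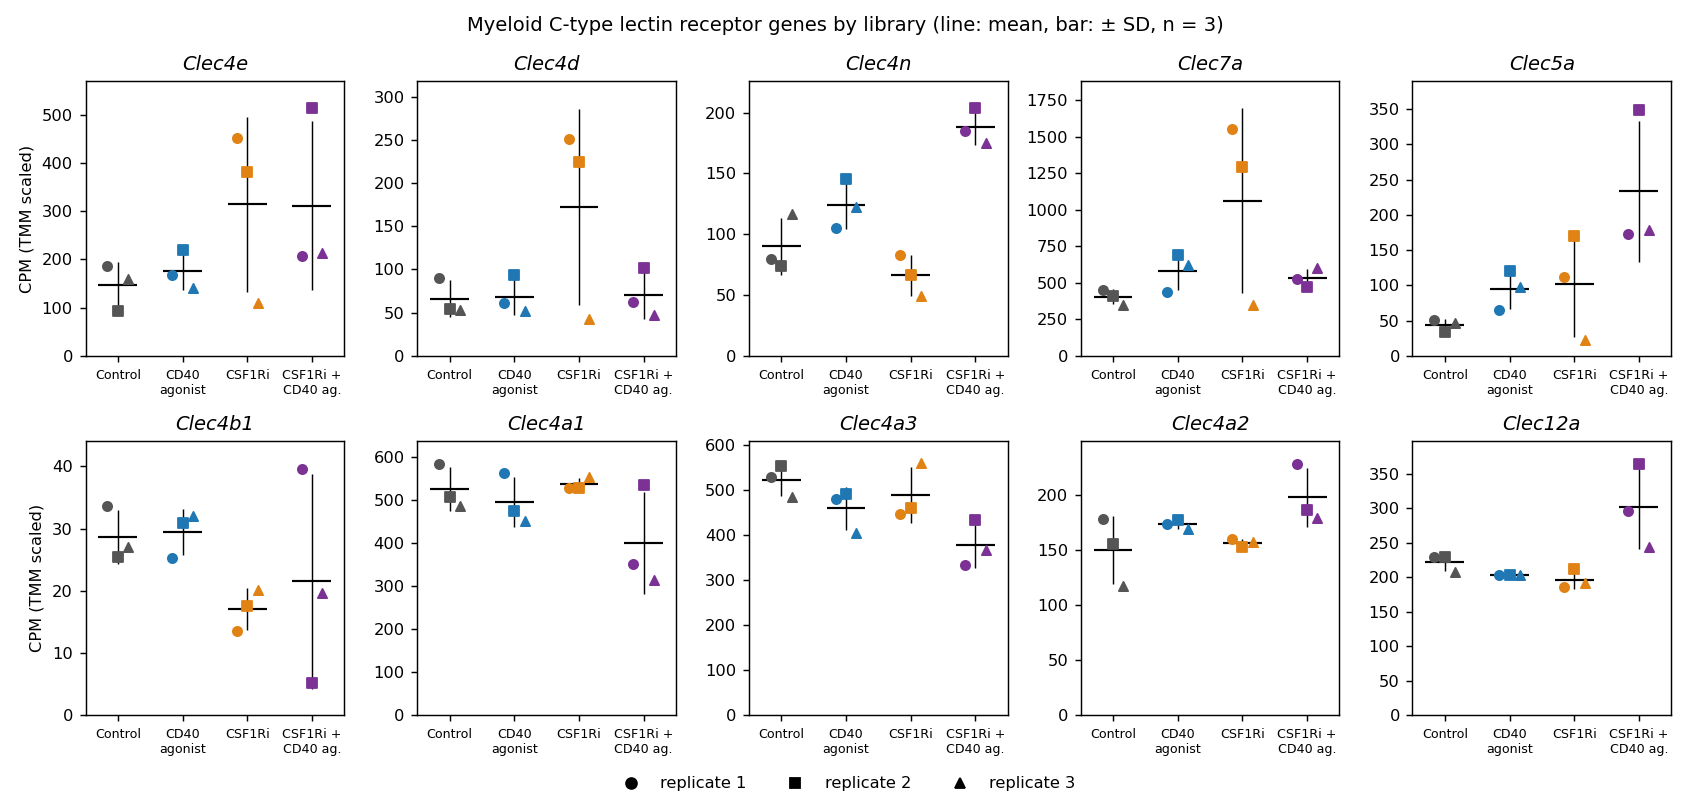
CPM (after TMM scaling) of each of the 10 receptor genes in each library, 1 panel per gene, with a linear axis from 0; the horizontal line is the group mean, the vertical bar the SD of 3 libraries, and circle, square and triangle are replicates 1, 2 and 3. The 3 combination libraries lie above all others for Clec4n and Clec12a, and the triangle of CSF1Ri lies far below the other CSF1Ri points for Clec4e, Clec4d, Clec7a and Clec5a.

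Clec4n, which encodes Dectin-2, was highest in the combination and lowest in CSF1Ri alone. In Control it was measured at 79.6, 74.1 and 117 CPM in replicates 1, 2 and 3, in the CD40 agonist group at 105, 145 and 122, in CSF1Ri at 83.0, 66.4 and 48.9 and in the combination at 185, 204 and 175. All 3 combination libraries were above the other 9, and the CD40 agonist libraries were above those of CSF1Ri but overlapped Control. Clec4n rose from CSF1Ri to the combination 2.85-fold (log2 fold change 1.51 ± 0.23 SE, 95% interval 1.01 to 2.01, edgeR adjusted p = 0.0158). It was 1 of 2 members called higher there, where 1.24% of all genes were. In bulk RNA a change in the number of cells that express a gene and a change in RNA per cell cannot be told apart, here and for every member. Replicates are pooled samples, so that p-values measure the spread between these pools. Against Control the combination was 2.08-fold higher (1.06 ± 0.23), which missed the threshold at an adjusted p of 0.0634, and against the CD40 agonist 1.52-fold (0.60 ± 0.22, adjusted p = 0.437). Over all 4 groups at once Clec4n was the 1 member called (adjusted p = 0.0312), where 1.2% of the 16027 genes tested were, and that call was kept in 3 of 12 fits that left out 1 library. The interaction, which asks whether adding one agent changes what the other gives, was 1.05 ± 0.32 and was not called (adjusted p = 0.431).

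The rise of Clec4n over CSF1Ri kept its call in 11 of 12 fits that left out 1 library. It missed the threshold without CSF1Ri replicate 2 (adjusted p = 0.0632) and in a fit of only those 6 libraries (0.115). DESeq2 called it over Control too (1.08, adjusted p = 0.000705), as did limma voom (1.09, adjusted p = 0.0388) and edgeR without CSF1Ri replicate 3 (1.05, 0.0425). Beside it, dissociation and stress genes such as Fos and Jun summed to 1750 to 2820 CPM in CSF1Ri and 3070 to 4260 in the combination, 8 of 10 of them higher (median 0.65, 2 called). Other lists differed in the same comparison. Of 9 eosinophil, basophil and mast cell markers tested, 6 were lower in the combination, 3 of them called, and 3 were higher (median -2.66). They summed to 516 to 690 CPM in CSF1Ri and 386 to 641 in the combination. From CSF1Ri to the combination the mean of Siglecf went from 23.1 to 1.7 CPM, that of Fcer1a from 62.4 to 106 and that of Cpa3 from 44.6 to 65. Macrophage markers had 9 of 13 higher (median 0.70, 1 called) and natural killer cell markers 4 of 5 (median 1.13, 1 called). Neutrophil markers went both ways, 4 of 12 higher and 8 lower (median -0.67, 1 called lower). So did patrolling monocyte markers, 4 of 9 higher and 5 lower (median -0.11, 1 called lower). Melanocyte and melanoma markers, with 6 of 6 higher and 0 called (6 at an unadjusted p below 0.05), summed to 4.95 to 5.39 CPM in CSF1Ri and 7.15 to 98.1 in the combination. The part of these cells and of stress in the result was not tested.

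Clec4e and Clec4d, the neighbouring genes of Mincle and MCL, whose proteins are known to form a complex, had high levels in 2 of the 3 CSF1Ri libraries, and the ratio of the first to the second was highest in the combination. Clec4e lay at 186, 93.2 and 160 CPM in Control, 168, 219 and 141 in the CD40 agonist group, 451, 382 and 109 in CSF1Ri and 207, 513 and 213 in the combination. Clec4d lay at 90.7, 54.4 and 53.5 CPM in Control, 60.9, 93.1 and 52.1 in the CD40 agonist group, 251, 224 and 42.4 in CSF1Ri and 62.9, 102 and 47.4 in the combination. For both genes replicates 1 and 2 of CSF1Ri were above every Control library, while replicate 3 was among the Control values for Clec4e and below them for Clec4d. In the combination Clec4e was above all Control libraries in CPM and Clec4d overlapped them. In TPM Clec4e in combination replicate 1 (102) was below Control replicate 1 (108). Their TPM ratio, Clec4e over Clec4d, was 0.97 ± 0.278 in Control, 1.21 ± 0.147 in the CD40 agonist group, 0.868 ± 0.344 in CSF1Ri and 1.83 ± 0.39 in the combination. The 3 combination ratios of 1.41, 2.19 and 1.88 were above the other 9, the highest of which was 1.3. This ratio is a description with no test. How many other pairs of genes set the combination apart in this way was not counted. No comparison called either gene: the log2 difference of CSF1Ri from Control was 1.10 ± 0.50 for Clec4e (adjusted p = 0.531) and 1.38 ± 0.55 for Clec4d (0.467), and that of the combination 1.09 ± 0.50 (0.347) and 0.10 ± 0.54 (0.961). Without combination replicate 2 the last 2 values were 0.52 (adjusted p = 0.686) and -0.26 (0.893), so that the second turned its direction.

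Clec7a, the gene of Dectin-1, had its highest levels in CSF1Ri alone. It lay at 454, 407 and 351 CPM in Control, 439, 687 and 623 in the CD40 agonist group, 1550, 1290 and 347 in CSF1Ri and 526, 472 and 601 in the combination. CSF1Ri replicates 1 and 2 were above the other 10 libraries and replicate 3 was the lowest of all 12. In CPM the combination was above Control in each library, by a log2 difference of 0.40 ± 0.41 (adjusted p = 0.71). In TPM combination replicate 2 (305) was below Control replicate 1 (328). CSF1Ri differed from Control by 1.40 ± 0.41 (95% interval 0.49 to 2.30, adjusted p = 0.306) and the combination from CSF1Ri by -0.99 ± 0.41 (adjusted p = 0.231), neither of them called by edgeR, while DESeq2 called the first (adjusted p = 0.0341). The interaction was -1.52 ± 0.58 (adjusted p = 0.512).

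The comparisons of CSF1Ri depended on replicate 3 of that group. Without it Clec7a was called over Control at 1.79 (adjusted p = 0.00806), lower in the combination than in CSF1Ri at -1.40 (0.0146), and called in the interaction at -1.93 (0.0415), and Clec4d was called lower in the combination than in CSF1Ri at -1.74 (0.0402). Without it and combination replicate 2 together, CSF1Ri was called over Control for Clec7a (1.81, adjusted p = 0.00319), Clec4d (1.84, 0.0174), Clec5a (1.70, 0.0195) and Clec4e (1.51, 0.028). That fit called 338 of 16635 genes in CSF1Ri against Control, and the fit without replicate 3 alone 124 of 16775. With all libraries 2 genes were called. Both libraries were left out because they stood apart in these same data. Replicate 3 was the low library for these receptors, so its removal favoured the calls, which are given as a description. Markers of myeloid cells differed between the same libraries. Classical monocyte markers, all 8 of them higher than in Control (median 1.16, 0 called), summed to 10400, 9410 and 5770 CPM in CSF1Ri replicates 1, 2 and 3, against 3930 to 5050 in Control, 4440 to 6310 in the CD40 agonist group and 4890 to 14900 in the combination. Neutrophil markers, 8 of 12 of them higher (median 1.13, 0 called), summed to 3300, 2420 and 787 CPM, against 561 to 1400, 469 to 628 and 889 to 2610 in the same other groups. Dendritic cell markers, 2 of 10 higher (median -0.60, 0 called), summed to 984, 1020 and 2570 CPM in CSF1Ri. Eosinophil, basophil and mast cell markers, 9 of 9 higher (median 1.96, 0 called, 7 at an unadjusted p below 0.05), summed to 605, 690 and 516 CPM, against 153 to 220 in Control. Patrolling monocyte markers, 9 of 9 lower (median -0.84, 0 called), summed to 1710 to 1990 CPM, against 3030 to 3050. Of 13 macrophage markers 9 were lower and 4 higher (median -0.34, 0 called). Their sum was higher, 22700 to 24800 CPM against 16900 to 20600, with Lyz2 alone at means of 21500 and 15700. CSF1Ri replicate 3 therefore held fewer counts of neutrophil and classical monocyte markers than the other CSF1Ri libraries. It held more of dendritic cell markers and of patrolling monocyte markers (1990 CPM against 1710 and 1720). The part of these cells in the receptor levels was not tested.

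Clec5a, the gene of the Tyrobp-coupled receptor MDL-1, was the member with the largest estimated difference from Control. Its levels were 50.7, 33.2 and 46.4 CPM in Control, 65.2, 121 and 97.8 in the CD40 agonist group, 112, 170 and 22.0 in CSF1Ri and 173, 349 and 179 in the combination. Every CD40 agonist and combination library was above every Control library, and CSF1Ri held both values above Control and the lowest of all. In CPM every combination library was above every other one by a narrow margin (173 against 170). In TPM combination replicate 1 (143) was below CSF1Ri replicate 2 (148). The combination was 5.38-fold above Control (log2 2.43 ± 0.59, 95% interval 1.13 to 3.73), which edgeR did not call (adjusted p = 0.0891). It was called with DESeq2 (2.45, adjusted p = 0.00069), when CSF1Ri replicate 3 was left out (2.41, 0.0155) and when combination replicate 2 was left out with it (2.02, 0.015). The CD40 agonist alone differed from Control by 1.12 ± 0.57 (adjusted p = 0.689), CSF1Ri alone by 1.22 ± 0.57 (0.537) and the combination from the CD40 agonist by 1.30 ± 0.57 (0.528). These comparisons share the Control or the combination libraries. The value for CSF1Ri ran from 0.60 without its replicate 2 to 1.68 without its replicate 3, and that against Control was 2.02 (adjusted p = 0.172) without combination replicate 2 alone.

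**Figure D2:**
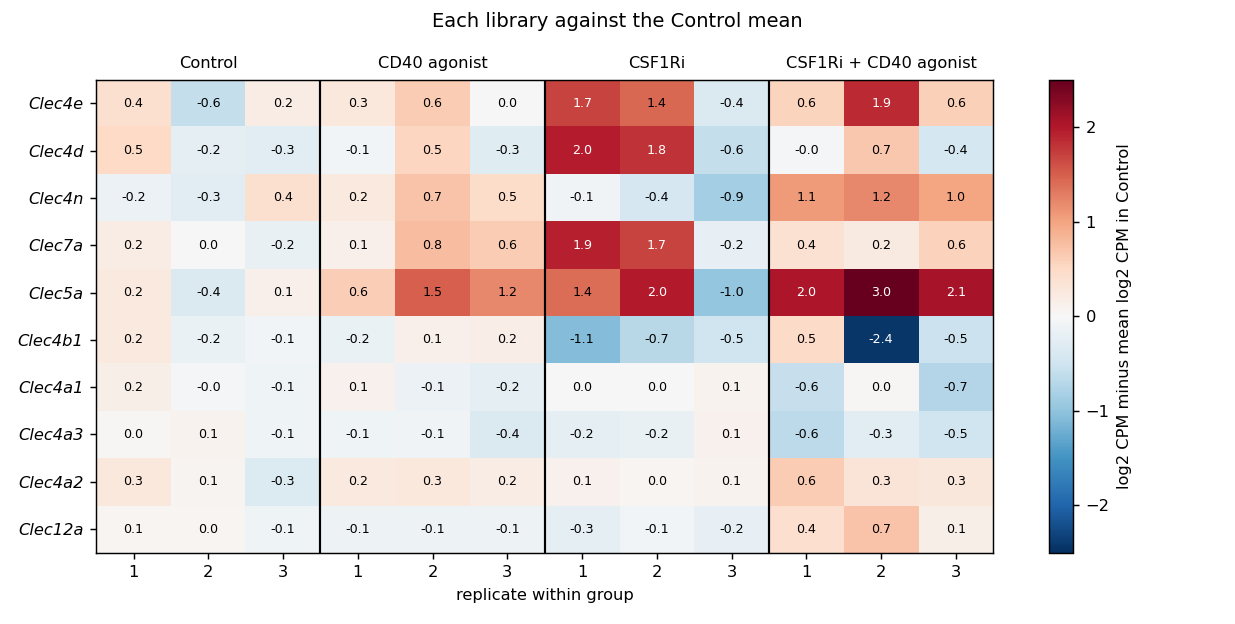
Log2 CPM of each receptor gene in each library minus the mean log2 CPM of the 3 Control libraries, with 1 column per library in the order of groups and replicates, colored from -2.5 (blue) to 2.5 (red). Clec5a and Clec4n are red in all 3 combination columns, while Clec4e, Clec4d, Clec7a and Clec5a are red in CSF1Ri replicates 1 and 2 and not in replicate 3.

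Clec4b1, the gene of DCAR, was the least abundant member in CPM and the most uneven within the combination. It lay at 33.6, 25.4 and 27.0 CPM in Control, 25.2, 30.9 and 32.1 in the CD40 agonist group, 13.5, 17.5 and 20.2 in CSF1Ri and 39.6, 5.29 and 19.7 in the combination. All CSF1Ri libraries were below all Control and CD40 agonist libraries, and combination replicates 1 and 2 were the highest and lowest of the 12. The log2 difference of CSF1Ri from Control was -0.74 ± 0.52 (adjusted p = 0.719) and that of the combination -0.41 ± 0.52 (0.773). The latter turned to 0.05 without combination replicate 2 and went to -1.19 without replicate 1. Dendritic cell markers summed to 3130, 363 and 3210 CPM in combination replicates 1, 2 and 3, 1790 to 3480 in Control, 1830 to 2340 in the CD40 agonist group and 984 to 2570 in CSF1Ri. The library with the lowest Clec4b1 thus also had the lowest dendritic cell sum, and its part in the result was not tested.

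Of the inhibitory receptors Clec12a rose and Clec4a2 was not called, and both stood highest in the combination. Clec12a, the gene of the uric acid receptor MICL, lay at 230, 229 and 207 CPM in Control, 203, 204 and 203 in the CD40 agonist group, 186, 212 and 192 in CSF1Ri and 296, 364 and 244 in the combination. In CPM each combination library was above the other 9, and the CD40 agonist libraries were just below Control. In TPM combination replicate 3 (158) was below Control replicate 1 (161). Clec12a rose 1.53-fold from CSF1Ri to the combination (log2 0.62 ± 0.14, 95% interval 0.31 to 0.92), at an adjusted p of 0.0494 that lies at the threshold. Leaving out 1 library kept this call in 1 of 12 fits, that without combination replicate 3 (0.75, adjusted p = 0.0303), and the adjusted p reached 0.139 without CSF1Ri replicate 1. Without combination replicate 2, its highest library, the log2 value was 0.46. The differences of the combination from Control (0.44 ± 0.14, adjusted p = 0.174) and from the CD40 agonist (0.57 ± 0.14, 0.272) were not called, nor was the interaction (0.74 ± 0.20, 0.371). DESeq2 called all 3 (adjusted p = 0.0367, 0.0131 and 0.0401). Over CSF1Ri, Clec12a was called in 5 of 25 alternative fits, those without 1 library included. DESeq2 was among the 5, and limma voom and limma on log2 TPM were not.

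Clec4a2, the gene of DCIR, lay at 178, 155 and 117 CPM in Control, 174, 177 and 169 in the CD40 agonist group, 160, 153 and 157 in CSF1Ri and 228, 186 and 179 in the combination. The combination libraries were above the other 9 by a narrow margin (179 against 178). In TPM combination replicate 2 (213) was below Control replicate 1 (243). Its log2 differences were 0.40 ± 0.15 from Control (adjusted p = 0.261) and 0.33 ± 0.15 from CSF1Ri (0.279). The ratio of summed TPM of activating over inhibitory receptors was 1.71 ± 0.24 in Control, 2.33 ± 0.462 in the CD40 agonist group and 2.36 ± 0.431 in the combination. In CSF1Ri it was 5.70, 4.67 and 1.25, so that this group held both the highest and the lowest ratios.

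Clec4a1 and Clec4a3, the most abundant members in Control, had lower means in the combination, as did Clec4b1. Clec4a3 lay at 530, 554 and 486 CPM in Control, 482, 492 and 406 in the CD40 agonist group, 447, 460 and 561 in CSF1Ri and 334, 435 and 368 in the combination. Each combination library was below each Control and CSF1Ri library and overlapped the CD40 agonist. Clec4a1 lay at 584, 507 and 488 CPM in Control, 563, 476 and 451 in the CD40 agonist group, 529, 529 and 554 in CSF1Ri and 352, 535 and 314 in the combination. Here combination replicates 1 and 3 were below all other libraries and replicate 2 was within their range. The log2 differences of the combination from Control were -0.46 ± 0.14 for Clec4a3 (adjusted p = 0.153) and -0.39 ± 0.18 for Clec4a1 (0.34), and those from CSF1Ri -0.37 ± 0.14 (0.186) and -0.42 ± 0.18 (0.245). None was called by edgeR. Without combination replicate 2 Clec4a1 was called lower than in Control (-0.66, adjusted p = 0.0432) and than in CSF1Ri (-0.69, 0.0243).

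On the TPM scale, limma on log2(TPM + 1) called Clec4a3 lower in the combination than in Control (-0.66, adjusted p = 0.0166) and both genes lower than in CSF1Ri (-0.55 and -0.64, adjusted p = 0.0247 and 0.033). That scale moved the median of all genes to -0.151 and -0.13 in these comparisons, against 0.00 and 0.02 with TMM-scaled counts. It called 117 genes higher and 212 lower in the combination than in Control, where TMM-scaled counts gave 74 and 50, and 216 and 444 against CSF1Ri, where they gave 199 and 112. Markers of patrolling monocytes, all 9 lower than in Control (median -0.79, 4 called), summed to 1530 to 2180 CPM in the combination and 3030 to 3050 in Control. They summed to 1710 to 1990 CPM in CSF1Ri, in which Clec4a1 and Clec4a3 stood at 537 ± 14.3 and 490 ± 62.3 CPM against 526 ± 50.8 and 523 ± 34.1 in Control. The part of these cells in the levels of either gene was not tested.

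**Figure D3:**
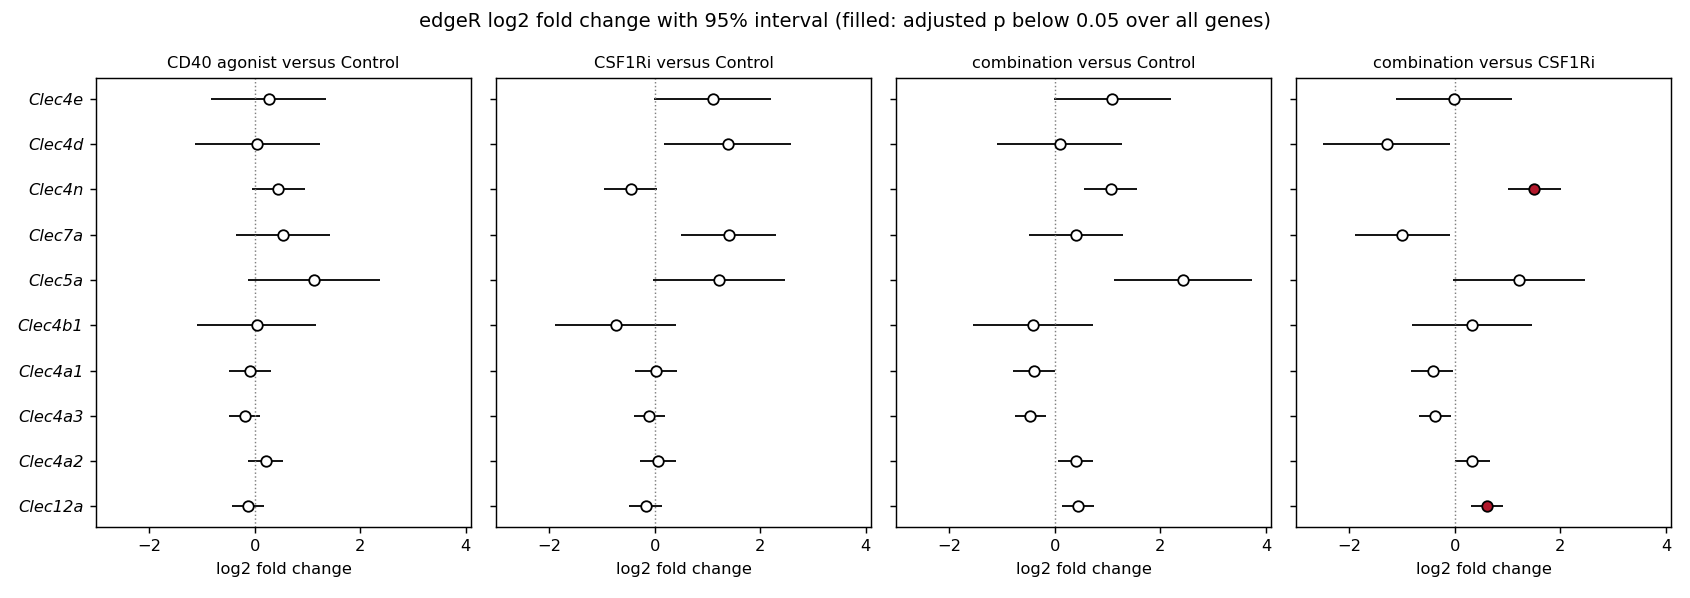
EdgeR log2 fold change of each receptor gene in 4 comparisons, with the 95% interval as a line, on a common linear axis; filled points have an adjusted p below 0.05 over all genes tested. Clec4n and Clec12a in the combination against CSF1Ri are the 2 filled points, and the interval of Clec5a in the combination against Control runs from 1.13 to 3.73.

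Counts over the family were set beside the same counts over all genes tested, and overlap of groups was judged in CPM. The CD40 agonist against Control called 0 of the 10 members and 0% of all genes by edgeR, and 0 members against 7.68% of all genes (1231) had an unadjusted p below 0.05. DESeq2 called 238 genes and 0 members in that comparison. Groups did not overlap for Clec5a, which was higher (8.34% of all genes), and for Clec12a, which was lower (8.74%). CSF1Ri against Control called 0 members and 0.0125% of all genes, with 2 members against 9.47% of all genes at an unadjusted p below 0.05. DESeq2 called Clec7a and 444 genes there, and Clec4b1 alone did not overlap, being lower (8.55% of all genes), where 7.23% of all genes lay wholly higher and 0 members did.

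The combination against Control called 0 members, where it called 0.774% of all genes, and 5 members had an unadjusted p below 0.05 against 14.8% of all genes. The groups did not overlap for 6 higher members, Clec4a2, Clec4e, Clec4n, Clec5a, Clec7a and Clec12a (10.8% of all genes), and for 1 lower one, Clec4a3 (11.5%). In TPM Clec4n, Clec5a and Clec4a3 stayed apart from Control, while Clec4a2, Clec4e, Clec7a and Clec12a overlapped it. DESeq2 called Clec4n, Clec5a, Clec12a and Clec4a3 and 1099 genes in all. The median log2 difference of the members was 0.40 and that of all genes 0.00, with 7 members higher and 3 lower. Without Control replicate 1, 2 or 3 the comparison called 0, 1 and 0 genes in place of 124. Against CSF1Ri 2 of 10 members were called, both higher, where 1.24% of all genes were called higher and 1.94% in either direction, and 6 members had an unadjusted p below 0.05 against 18.3% of all genes. Not overlapping were 4 higher members (10.8% of all genes), Clec4a2, Clec4n, Clec5a and Clec12a, and the lower Clec4a3 (11.1%), and the medians were 0.16 and 0.02. In TPM Clec4a2 and Clec5a overlapped CSF1Ri. The comparison called 311 genes, and 43 and 22 without CSF1Ri replicate 1 and 2.

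Against the CD40 agonist the combination called 0 members and 0% of all genes. At an unadjusted p below 0.05 there were 3 members and 9.05% of all genes (1450), DESeq2 called Clec12a among 354 genes, and the same 4 higher members did not overlap (6.6% of all genes), with 0 lower ones (6.93%). Between the single agents 0 members were called, where 0.387% of all genes were, and 2 members had an unadjusted p below 0.05 against 14% of all genes. Clec4a2, Clec4b1 and Clec4n lay wholly higher in the CD40 agonist group than in CSF1Ri (11.2% of all genes) and 0 members wholly lower (10.1%). In TPM Clec4a2 overlapped here, and also between the combination and the CD40 agonist. Clec4n was 1.87-fold higher in the CD40 agonist group than in CSF1Ri (0.91 ± 0.23, adjusted p = 0.111), which DESeq2 called (0.91, adjusted p = 0.00682) among 1077 genes. The interaction called 0 members and 0% of all genes, and 3 members, Clec4n, Clec7a and Clec12a, had an unadjusted p below 0.05 against 8.14% of all genes (1305 genes), with DESeq2 calling Clec12a among 240 genes.

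The signalling chain below the receptors was measured in full, and 0 of its 19 genes were called in any comparison by edgeR. At an unadjusted p below 0.05 there were 2 of the 19 in the CD40 agonist against Control, 3 in CSF1Ri and 1 in the combination against Control, 0 in the combination against the CD40 agonist, 2 against CSF1Ri, 4 between the single agents and 2 in the interaction. DESeq2 called Syk and Src in both comparisons of an agonist group with CSF1Ri and none of the 19 in the others between groups. Fcer1g, the adaptor of Mincle, MCL, Dectin-2 and DCAR, lay at 1420 ± 142 CPM in Control, 1390 ± 167 in the CD40 agonist group, 1410 ± 119 in CSF1Ri and 1500 ± 397 in the combination. Its log2 difference between the combination and Control was 0.08 (95% interval -0.30 to 0.46). Tyrobp, the adaptor of MDL-1, had means of 1710, 1590, 1880 and 1540 CPM in the same order, and its difference was -0.16 (-0.46 to 0.15). Hcst, a further adaptor of this kind, differed by -0.01.

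Syk, the shared kinase, lay at 284, 260 and 239 CPM in Control, 196, 211 and 173 in the CD40 agonist group, 325, 332 and 294 in CSF1Ri and 173, 255 and 217 in the combination. Every CSF1Ri library was above every other one for Syk, and every CD40 agonist library was below every Control library. The log2 differences were -0.71 ± 0.15 between CD40 agonist and CSF1Ri (adjusted p = 0.0672) and -0.56 ± 0.15 between combination and CSF1Ri (0.0804), both short of the threshold. Without combination replicate 2 edgeR called Syk in both comparisons. Src, a kinase that phosphorylates the receptor motifs, was scarce, with means of 2.17, 3.5, 0.345 and 6.37 CPM in Control, CD40 agonist, CSF1Ri and combination (4.20 ± 1.13 between combination and CSF1Ri, adjusted p = 0.0853). Card9, which links Syk to NF-kB, was low too, with means of 15.6, 13.4, 14.9 and 21.1 CPM. The phosphatase gene Ptpn6 had means of 515, 498, 559 and 680 CPM. In the combination against Control log2 differences were 0.27 for Bcl10 and 0.32 for Malt1, the partners of Card9, and -0.25 for Plcg2 and -0.05 for Prkcd, enzymes that act below Syk. The phosphatase genes Ptpn11 and Inpp5d gave 0.29 and -0.03, the kinase genes Lyn and Map3k7 -0.11 and -0.12, the exchange factors Vav1 and Vav3 0.52 and -0.39, and Traf6 0.15. The median of the 19 genes was -0.01, beside 0.00 for all genes.

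Of cytokine and feedback genes known to be induced through Syk and Card9, 19 of 20 passed the filter on low counts, and 17 of the 19 were higher in the combination than in Control (median 1.66, all genes 0.00). Called higher were 7: Tnf (2.91), Tnfaip3 (2.65), Ccl4 (2.20), Il6 (1.95), Ccl3 (1.94), Nfkbia (1.91) and Nfkbiz (1.41). Against CSF1Ri 14 of 19 were higher (median 0.95) and 5 were called, Il12b (4.45 ± 0.88, adjusted p = 0.0337), Tnf (4.04 ± 0.41, 0.0066), Tnfaip3 (1.74), Nfkbiz (1.51) and Nfkbia (1.34). Tnf lay at 7.0 to 12.5 CPM in CSF1Ri, 20.5 to 24.7 in Control, 58.8 to 115 in the CD40 agonist group and 96.3 to 266 in the combination. The 7 calls against Control were lost without any 1 of the 3 Control libraries, as were nearly all calls of that comparison. Between the single agents Tnf was the 1 gene of this list called (3.03, adjusted p = 0.0182), in 9 of 12 fits that left out 1 library. In the combination against CSF1Ri Tnf was called in 12 of 12 fits that left out 1 library, Tnfaip3 and Nfkbiz in 9 and Il12b and Nfkbia in 2. Many stimuli other than these receptors, CD40 among them, are known to induce the same genes. Stress genes moved beside them, with 9 of 10 higher in the combination than in Control (median 1.15, 5 called).

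Of 35 other listed genes with C-type lectin domains 29 passed the filter on low counts. In the combination against Control 18 of these 29 were lower (median -0.39) and 1 was called, Cd69, an early activation marker, which rose by 2.46 and lost its call without any 1 of the 3 Control libraries. Against CSF1Ri the natural killer receptor gene Klrk1 was called (0.90 ± 0.19, adjusted p = 0.0439), and between CD40 agonist and CSF1Ri the related Klrd1 (1.52 ± 0.27, 0.0433), each in 2 of 12 fits that left out 1 library. Natural killer cell markers summed to 311 to 459 CPM in CSF1Ri, 594 to 1240 in the CD40 agonist group and 624 to 1110 in the combination, and their part in these calls was not tested. Among the lectins with the largest estimates for the CD40 agonist against Control were Cd207, which encodes langerin, with means of 6.03 CPM in Control and 94.1 with the agonist (3.96 ± 1.34, adjusted p = 0.556), and Mgl2, a galactose receptor of macrophages and dendritic cells, with 79.8 and 391 CPM (2.29 ± 0.78, adjusted p = 0.559).

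Among 14 myeloid transcription factors, all measured, Spi1, which encodes PU.1, had means of 77, 59.9, 73.2 and 66.8 CPM in Control, CD40 agonist, CSF1Ri and combination; it is named for its motif and was chosen after its values were seen. Cebpb had 62.9, 42.5, 65.8 and 47 CPM, and neither was called. Klf4, a factor of monocyte development, fell in the combination against Control by 0.78 on the log2 scale (SE 0.12, adjusted p = 0.0196) and was higher in the CD40 agonist group than in CSF1Ri (0.80, adjusted p = 0.019), a call lost without any 1 of the 3 CD40 agonist libraries or CSF1Ri replicate 1. Irf8, which directs monocyte and dendritic cell fate, rose from CSF1Ri to the combination (0.77 ± 0.16, adjusted p = 0.0402), the comparison in which Clec4n and Clec12a rose. The call of Klf4 against Control was lost without any 1 of the 3 Control libraries or combination replicate 3, and that of Irf8 was kept in 1 of 12 fits that left out 1 library. Irf8 lay at 152, 147 and 230 CPM in CSF1Ri and at 281, 331 and 288 in the combination, without overlap.

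The plot of marker sums shows how the libraries differed in the myeloid cells they could hold.

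**Figure D4:**
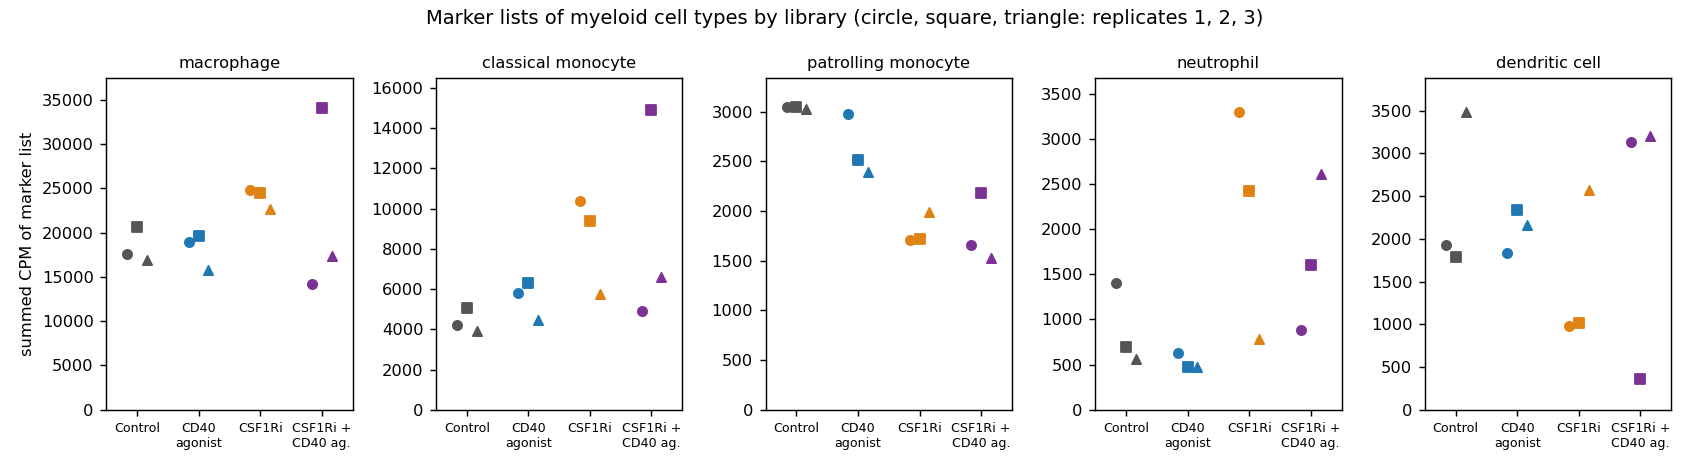
Summed CPM of 5 marker lists in each library, with 1 panel per list, linear axes from 0, and circle, square and triangle for replicates 1, 2 and 3 of each group. Combination replicate 2 (square) has the highest macrophage and classical monocyte sums, 34100 and 14900 CPM, and the lowest dendritic cell sum, 363 CPM. Lyz2 alone gave 30900 CPM of that macrophage sum. Other macrophage markers in that library went both ways, with Csf1r (1210 CPM) the highest and Mrc1 (16.5 CPM) the lowest of all libraries. CSF1Ri replicate 3 (triangle) lies below the other CSF1Ri libraries for neutrophil and classical monocyte markers.

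Across the 12 libraries the receptors fell into sets by likeness of log2 CPM, described here by Pearson's r, to which differences between groups, cell makeup and depth all contribute. Clec4d and Clec7a had r = 0.854, Clec4d and Clec4e 0.805, Clec4e and Clec5a 0.802, and Clec4a1 and Clec4a3 0.809. Clec4n and Clec5a had 0.731 and Clec4e and Clec7a 0.675, while Clec5a was less like Clec7a (0.5) and Clec4d (0.441). With the group means taken out, r was 0.831, 0.927, 0.898 and 0.636 for the first 4 pairs and 0.835 and 0.917 for the last 2. For Clec4d and Clec4e r was thus higher within groups than across them. The gap between CSF1Ri replicate 3 and replicates 1 and 2 enters the values within groups for Clec4d, Clec4e, Clec5a and Clec7a. These values were not computed without that library. Clec4n and Clec12a, the members called in the combination against CSF1Ri, had r = 0.673 over all libraries and 0 within groups. Among the genes most like Clec4n over the 12 libraries were Psmd14 (0.96) and Cct5 (0.927), and those most like Clec12a were Psma7 (0.942), Pomp (0.941) and Dnajb6 (0.94), several of which encode proteasome subunits or assembly factors and chaperones. For Clec5a they were Snx2 (0.949), Psma6 (0.918) and Drg1 (0.915). Clec4e was nearest to Plek (0.956), Glrx (0.955) and Pde4b (0.951), Clec4d to Jmjd6 (0.957), Ccr1 (0.951) and Picalm (0.95), and Clec7a to Emp1 (0.948) and Sdc4 (0.931). Clec4b1 was nearest to Bmp2k (0.954) and Tmem176b (0.95). Clec4a1 was nearest to Mdm4 (0.928), Gm16139 (0.923) and Pilrb1 (0.915), Clec4a2 to Cox5b (0.895), Dpm1 (0.867) and Btf3l4 (0.863), and Clec4a3 to Olfr1316 (0.943), Stk38 (0.931) and Jrkl (0.93).

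The share of a gene's TPM held by its leading transcript was compared between Control and the combination. The leading transcript of Clec4n held 71.2 ± 3.5% of its TPM in Control and 68.3 ± 2.1% in the combination, that of Clec7a 77.2 ± 1.5% and 72.1 ± 2.9%, and that of Clec12a 72.1 ± 5.5% and 70.7 ± 4.0%. Clec4e was the least even, with 39.7% to 75.2% in the 3 Control libraries and 29.0% to 38.1% in the combination. Clec4a1 has 1 listed transcript. These shares are the deposited estimates, and the sources used here give no error for transcripts that overlap.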

How the data were processed

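RNA was sequenced from 4 groups of 3 libraries. Per the labels' protocols, a non-stranded kit was used on 50 ng of RNA and 75-base pairs were read with 6 libraries per lane, and the sources used here do not say which libraries were run together. The submitters' processing notes name STAR, HTSeq, DESeq2 and mm10. The deposited files instead hold, per the file headers, lengths, estimated counts and TPM values (transcripts per 1000000) for each of 111462 transcripts. The sources used here name no quantifier, version or annotation for these values. Part of the genotype and some genes that the naming rule covers are not reported here.

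Transcripts were matched to genes of GENCODE M21, which succeeded for 110203 (98.9%), and unmatched ones held 0.378% to 0.436% of the counts. The deposited estimated counts were summed per gene, 34989 genes in all, and rounded, and the deposited TPM values were summed without rounding. Genes were filtered on low counts (filterByExpr, 16027 kept, all 10 receptors among them), scaled by TMM and tested with edgeR 4.0.16 (robust quasi-likelihood, R 4.3.3) over all 12 libraries with 1 term per group and 8 residual degrees of freedom. P-values were adjusted by Benjamini-Hochberg over all genes tested, and a call is an adjusted p below 0.05. CPM values are after TMM scaling, and log2 CPM used a prior count of 2. Alternatives used DESeq2 1.42.0, limma 3.58.1 (voom, or log2 of TPM plus 1 or 0.1), other scalings and filters, other sets of libraries and a term for the replicate number. The fitting code was tested on simulated data with known fold changes. No 2 libraries of a group agreed within sampling noise. The submitters' lengths served only for a check of levels per length. Strand was not kept, so that reads of overlapping antisense transcripts cannot be told apart. Among the 34989 genes, only the processed pseudogene Gm44132 overlapped the span of a receptor, that of Clec4a2 and on the same strand.

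The receptors and the gene lists were chosen with earlier results of these data known. The naming rule took all 10 receptors, the 19 signalling genes, in each other list the called genes and at most 4 others of largest fold change, and the 3 genes most alike each receptor.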

Additional observations from a re-analysis of the deposited data

How the results depend on the processing

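In this paragraph counts stand in the order CD40 agonist, CSF1Ri and combination against Control, combination against CD40 agonist and against CSF1Ri, CD40 agonist against CSF1Ri, interaction, and any difference. EdgeR called 0, 2, 124, 0, 311, 62, 0 and 193 genes, and DESeq2 238, 444, 1099, 354, 1676, 1077, 240 and 1978. DESeq2 at the labels' limits on size and significance called 33, 66, 77, 29, 108, 109 and 27 in the first 7. Bias-adjusted edgeR called 10, 282, 14, 524, 135 and 411 in the first, the third, the fourth, the fifth, the sixth and the last. The log2(TPM + 1) scale gave 15, 37, 329, 26, 660, 226 and 482, leaving out the interaction, and log2(TPM + 0.1) gave 1, 31, 281, 9, 617, 190 and 428. Without a filter log2(TPM + 1) gave 25, 5, 20 and 6 in the first, the second, the fourth and the seventh. Limma voom gave 5, 0 and 7 in the first, the second and the fourth, and fits of only the groups compared 43, 0, 5 and 0 in the first, the second, the third and the fifth. Counts not given were within 1.5 times those of edgeR. Without combination replicate 2 and CSF1Ri replicate 3 together the counts were 38, 338, 232, 8, 632, 500, 66 and 646. Leaving out 1 library gave 0 to 7, 0 to 124, 0 to 154, 0 to 6, 22 to 429, 0 to 218, 0 to 15 and 13 to 291.

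Of the receptors, edgeR called 2 in the combination against CSF1Ri, 1 over any difference and 0 in the other comparisons. DESeq2 called 1 in CSF1Ri against Control, 4 in the combination against Control, 1 against the CD40 agonist, 1 between the single agents, 1 in the interaction and 4 over any difference, and 1 against CSF1Ri at the labels' limits. Limma voom called 1 against Control and 1 against CSF1Ri, bias-adjusted edgeR 1 against Control, and both filtered TPM scales 2 against Control and 2 over any difference. The unfiltered TPM scale called 1 against Control, 1 against CSF1Ri and 0 over any difference, edgeR without a filter 1 against CSF1Ri, and the fit of those 6 libraries alone 0. Without both outlying libraries 4 were called in CSF1Ri against Control, 3 and 4 in the combination against Control and CSF1Ri, 3 between the single agents, 1 in the interaction and 5 over any difference. Leaving out 1 library gave 0 to 0, 0 to 1, 0 to 2, 0 to 0, 0 to 3, 0 to 1, 0 to 1 and 0 to 4 in the order above. No receptor called by edgeR had its direction reversed by an alternative, and of all single receptor values set beside the edgeR ones 1814 kept their direction and their side of the threshold, 79 uncalled ones turned their direction, 54 gained a call and 33 lost it. Levels per listed transcript length put the Control sum of the 10 receptors at 2380 in place of 2130.

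Replicate numbers gave no strong pairing of the libraries. The deviations of 18 same-numbered pairs correlated at -0.061 to 0.06, with 0 above 0.1, and those of pairs with unlike numbers at -0.107 to 0.073. Still, 7 of 12 libraries correlated best with their own number, and the count to be met by chance was not computed, so that a weak pairing remains possible. With the number as a block 1, 59, 121, 31 and 49 genes were called in the first, the third, the fifth, the sixth and the last comparison, and 1 receptor against CSF1Ri and 0 over any difference.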
